A study of Mus musculus with 16 samples.

Results

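Dbi, the gene of the acyl-CoA binding protein, and 8 genes that make, burn or carry acyl-CoAs were followed in demyelinated mouse spinal cord. The 9 genes are Dbi, the peroxisomal oxidase gene Acox3, the long-chain acyl-CoA synthetase genes Acsl1, Acsl3, Acsl4, Acsl5 and Acsl6, and the acyl-CoA binding domain genes Acbd3 and Acbd5. They were found by symbol among the 46078 Ensembl genes of the deposited count table, and all 9 were among the 15096 genes that passed the filter on low counts. The genes were proposed with the exercise against control results of these libraries known, in which Dbi and Acox3 stood out, so their values in that comparison are given as a description without a test.

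Lysolecithin, a lipid that dissolves myelin membranes, was injected into the spinal cord of every mouse, and the lesion was cut from frozen cord by laser microdissection for RNA sequencing. All mice were C57BL/6 aged 8 to 12 weeks, and the labels give 4 groups of 4 libraries each: exercise (free running wheel) at day 5, control (locked wheel) at day 5, exercise at day 10 and control at day 10. The design asks what free running did to the lesion by day 5 and by day 10, and what the intervening days did in runners and in controls. Library totals ran from 8.13 to 10.9 M counts (M, mega) in exercise and 11.2 to 13.9 M in control at day 5, and from 9.77 to 11.1 M in exercise and 10.7 to 12.7 M in control at day 10. At day 5 the depth of exercise and control libraries did not overlap. Neither did the share of counts in mt-Rnr2, a mitochondrial ribosomal RNA, which was 10.9% to 12.9% in exercise and 8.05% to 10.3% in control; the part of either in the values was not tested. A lesion holds many cell types: markers of mature oligodendrocytes summed to 10429.6 to 26908 CPM (counts scaled to 1 M reads of effective library size) over the 16 libraries, those of microglia to 5498 to 12844 CPM and those of astrocytes to 3251 to 7854 CPM. Exercise replicate 17 at day 10 stood apart, with 11656 CPM of mature oligodendrocyte markers and 12844 CPM of microglia markers, and the log2 fold changes of the 9 genes that use it are also given without it.

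A long-chain fatty acid enters metabolism once an acyl-CoA synthetase of the Acsl family has joined it to coenzyme A. The acyl-CoA binding protein then holds the product in the cytosol and hands it to enzymes that build membrane lipids, store it as ester or oxidise it. Myelin is rich in very long chain lipids, and in the nervous system Dbi is a gene of glia whose product is also cut into peptides, the endozepines, that act on GABA-A receptors and on the mitochondrial protein Tspo. Acox3 opens the peroxisomal oxidation of branched-chain acyl-CoAs. Acbd3 is a Golgi adaptor that recruits the lipid kinase Pi4kb, and Acbd5 sits in the peroxisomal membrane, where it binds the endoplasmic reticulum proteins Vapa and Vapb.

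The promoter windows of Dbi and Acox3 are shown because these genes separated exercise from control libraries at both days. RefSeq windows on GRCm38.p6, from 250 bases before to 50 after an annotated start, matched 8 of the 9 genes (all but Acbd3). Several letter strings were searched on both strands: the CCAAT box, CCAAT, in 37.4% of all 32851 windows; the GC box, GGGCGG, in 35.7%; the sterol element core, TCACNCCAC, in 1.24%; and the direct repeat 1, a pair of AGGTCA with 1 base between them, in 0.0396%. Capitals mark every match, which is a string in the window and not a shown binding site.
Dbi, chr1:120120870-120121169, minus strand: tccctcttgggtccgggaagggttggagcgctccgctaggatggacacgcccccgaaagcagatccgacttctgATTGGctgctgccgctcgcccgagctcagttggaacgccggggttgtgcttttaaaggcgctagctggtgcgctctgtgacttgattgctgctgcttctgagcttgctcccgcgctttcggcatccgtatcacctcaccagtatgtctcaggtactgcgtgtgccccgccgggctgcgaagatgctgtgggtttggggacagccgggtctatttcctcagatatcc
Acox3, chr5:35582784-35583083, plus strand: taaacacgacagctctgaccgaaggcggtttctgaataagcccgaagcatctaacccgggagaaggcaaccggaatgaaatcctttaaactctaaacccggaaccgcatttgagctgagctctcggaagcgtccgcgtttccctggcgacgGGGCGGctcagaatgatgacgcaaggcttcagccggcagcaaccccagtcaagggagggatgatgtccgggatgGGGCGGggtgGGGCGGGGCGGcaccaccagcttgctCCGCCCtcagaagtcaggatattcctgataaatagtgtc
The Dbi window held 1 CCAAT box on the opposite strand (read as ATTGG) and no GC box, and the other annotated Dbi window overlaps it and holds the same match. The Acox3 window held 5 GC boxes, a neighbouring pair of which overlap, and no CCAAT box. Over the 8 genes, a CCAAT box stood in a window of 5 (Acsl1, Acsl3, Acsl5, Acsl6 and Dbi) and a GC box in a window of 5 (Acox3, Acsl1, Acsl3, Acsl4 and Acsl6). Some genes have more than 1 window, and the shares above are per window. Counted that way, the CCAAT box and the GC box were each in 7 of 13 windows, some of which overlap. The sterol core was in 1 window of Acsl1, and the direct repeat was in none of the 13 windows.

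Dbi (ENSMUSG00000026385, chromosome 1, 120113280 to 120121078, minus strand, GRCm38) was lower in exercise than in control in every library at both days. At day 5 it had 55.5, 65.4, 56.1 and 56.9 CPM (scaled by TMM, a correction for library composition) in exercise replicates 1, 2, 7 and 12, against 68.7, 72.1, 94.2 and 86.1 CPM in control replicates 1, 2, 5 and 6. At day 10 it had 58.6, 46.2, 70.1 and 56.2 CPM in exercise replicates 13, 17, 18 and 19, against 91.1, 98.3, 102 and 112 CPM in control replicates 2, 3, 4 and 5. The groups did not overlap at either day, and the gap was wider at day 10. The log2 fold change, exercise minus control, was -0.46 ± 0.13 at day 5 and -0.80 ± 0.13 at day 10 (SE, n = 4 and 4), or 1.37-fold and 1.74-fold lower. Without exercise replicate 17 the day 10 value was -0.71. In the authors' deposited tables, made from the same libraries, the log2 fold change of Dbi is -0.46 at day 5 and -0.72 at day 10, the second without exercise replicate 17. In bulk tissue, fewer cells of a type and less RNA per cell cannot be told apart. Astrocyte markers, of cells in which Dbi is known to be high, overlapped between the groups at both days: their sum was 3862 to 6677 CPM in exercise and 3251 to 6039 CPM in control at day 5, and 4944 to 7008 CPM in exercise and 6507 to 7854 CPM in control at day 10. Estimates of the 8 astrocyte markers lay below 0 for 3 at day 5 and for 7 at day 10, where their median log2 fold change was -0.35 and none passed the threshold; without exercise replicate 17 it was also 7. Their part in the Dbi values was not tested.

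**Figure D1:**
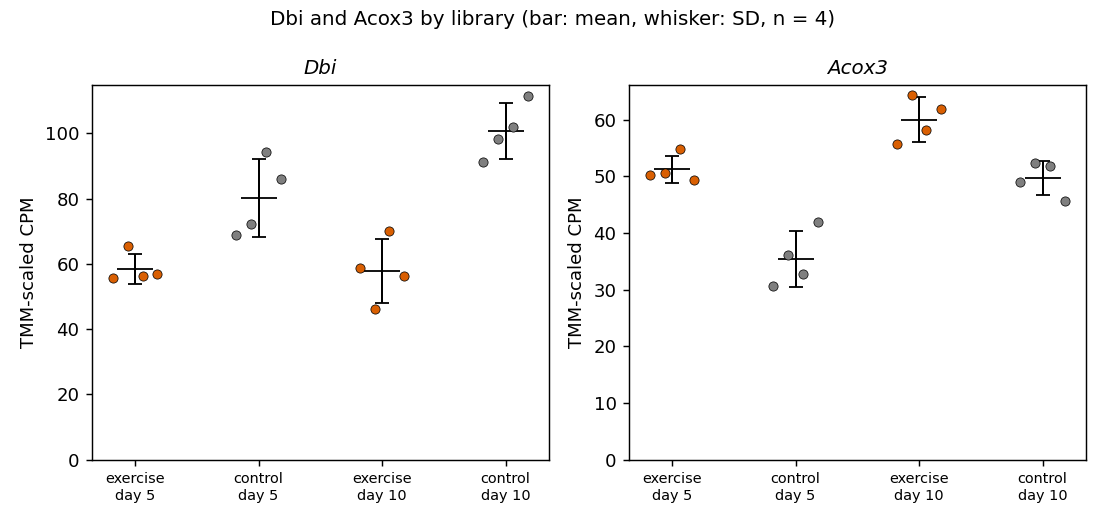
Each point is 1 library's TMM-scaled CPM of Dbi (left) or Acox3 (right) in exercise and control lesions at day 5 and day 10, with the mean as a bar and the SD as whiskers (n = 4). Dbi is at most 70.1 CPM in exercise libraries and at least 68.7 CPM in control libraries, while Acox3 is higher in exercise than in control at each day.

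Acox3 (ENSMUSG00000029098, chromosome 5, 35583040 to 35615352, plus strand) went the other way. At day 5 it had 50.3, 50.5, 54.8 and 49.3 CPM in exercise replicates 1, 2, 7 and 12, against 30.7, 36.2, 32.7 and 42.0 CPM in control replicates 1, 2, 5 and 6. At day 10 it had 55.6, 64.4, 58.1 and 61.9 CPM in exercise replicates 13, 17, 18 and 19, against 48.9, 52.4, 51.8 and 45.7 CPM in control replicates 2, 3, 4 and 5. Exercise libraries lay above control libraries without overlap at both days, by less at day 10. The log2 fold change was 0.53 ± 0.11 at day 5 and 0.27 ± 0.11 at day 10 (SE), or 1.45-fold and 1.21-fold higher, and 0.23 at day 10 without exercise replicate 17. The ratio of Dbi reads to Acox3 reads within a library does not depend on how libraries are scaled: it was 1.14 ± 0.113 in exercise and 2.29 ± 0.407 in control at day 5, and 0.971 ± 0.209 in exercise and 2.04 ± 0.274 in control at day 10 (SD, n = 4). The day 10 exercise ratio was 1.06 ± 0.149 without exercise replicate 17 (SD, n = 3). The highest exercise ratio in either day was 1.29 and the lowest control ratio was 1.86, so this ratio separated all exercise libraries from all control libraries. Dbi was lower and Acox3 higher in every exercise library than in the control libraries of its day, and both stood out when the genes were proposed. The ratio therefore had to separate the groups within each day and adds no support.

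Of the 7 other genes, none separated exercise from control at day 5. Over all 9, 2 did (Dbi and Acox3), where 7.29% of all genes tested had groups that did not overlap. By edgeR's quasi-likelihood test with Benjamini-Hochberg adjustment, no gene of the 15096 passed an adjusted p of 0.05 at day 5 (0%); 1513 had an unadjusted p under 0.05, and DESeq2 called 80. The median log2 fold change over the 9 genes was 0.07 at day 5, beside 0.01 over all genes. Acsl3 and Acsl5 were the next furthest from 0, at 0.33 ± 0.15 and 0.25 ± 0.15, each with 3 of 4 exercise libraries above all control libraries. The log2 fold change of the other 5 genes lay between -0.02 (Acbd3) and 0.15 (Acsl6).

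At day 10 exercise and control did not overlap for 4 of the 9 genes, where 5.88% of all genes did not. Dbi and Acsl1 were lower in exercise, and Acox3 and Acsl5 were higher. Acsl5, a synthetase of the endoplasmic reticulum and mitochondria, had 52.9, 68.8, 42.5 and 45.4 CPM in exercise replicates 13, 17, 18 and 19, against 36.4, 34.7, 41.2 and 36.6 CPM in control replicates 2, 3, 4 and 5. The lowest exercise library was just above the highest control library, the log2 fold change was 0.49 ± 0.15, and without exercise replicate 17, the highest, it was 0.33. Acsl1, the main synthetase of liver, fat and heart, had 97.9, 76.9, 83.6 and 97.3 CPM in the same exercise libraries, against 102, 115, 107 and 98.6 CPM in the control libraries. Its groups were also nearly touching, with a log2 fold change of -0.25 ± 0.10, and -0.19 without exercise replicate 17. Acsl3, a synthetase of the endoplasmic reticulum and lipid droplets, and Acsl6, a synthetase enriched in brain, had values of -0.39 ± 0.15 and -0.44 ± 0.18 with overlapping groups, and of -0.30 and -0.33 without exercise replicate 17. Acsl4, which prefers arachidonic acid, Acbd3 and Acbd5 lay at 0.04, 0.12 and 0.04, and without that library at -0.07, 0.05 and -0.0067. Of all genes, 29 passed the adjusted threshold of edgeR's test at day 10 (0.192%), and Dbi was the 1 called among these 9. That call is one of the values by which the genes were proposed.

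**Figure D2:**
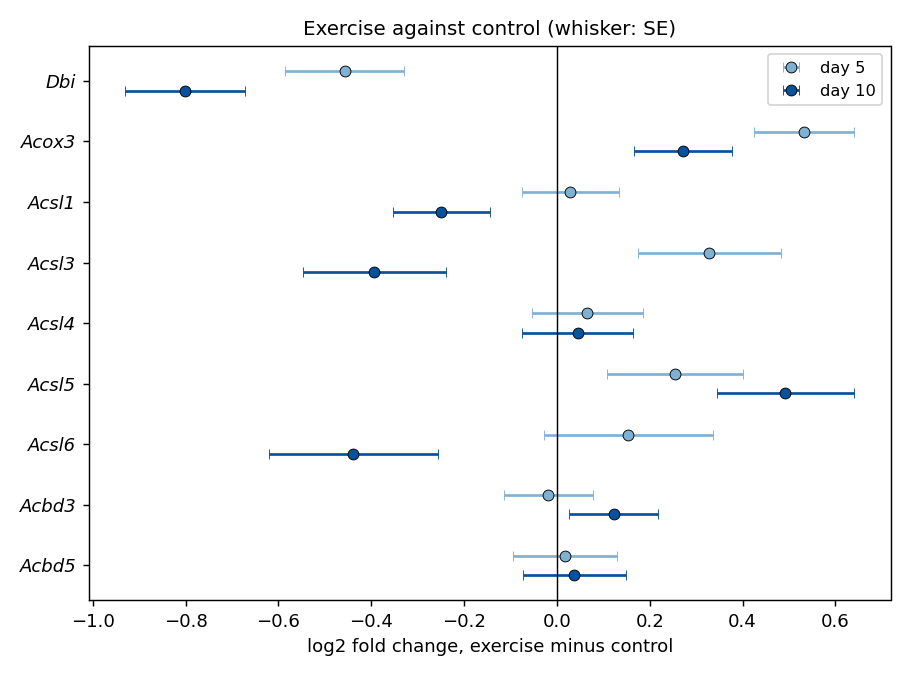
Log2 fold change, exercise minus control, of the 9 genes at day 5 (light points) and day 10 (dark points), with SE as whiskers, from the fit over all 16 libraries. Dbi lies left of 0 and Acox3 right of 0 at both days, and Acsl1, Acsl3 and Acsl6 lie right of 0 at day 5 and left of it at day 10.

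Mature oligodendrocyte markers were lower in exercise for all 8 of 8 genes at day 10 by their estimates, none of which passed the threshold; their sum was 11656 to 26908 CPM in exercise and 23429 to 26309 CPM in control. All 6 microglia markers had estimates above 0 at day 10, again with none past the threshold, and summed to 5948 to 12844 CPM in exercise and 5498 to 7631 CPM in control. Without exercise replicate 17, 6 of the 8 oligodendrocyte markers and none of the 6 microglia markers had estimates below 0. Endothelial markers had estimates below 0 for 7 of 8 genes, of which Slco1a4 passed (edgeR adjusted p = 0.0401), and summed to 203 to 270.2 CPM in exercise and 245 to 282 CPM in control. Of 6 markers of fibroblasts and meninges 4 lay below 0 and Igf2 passed (edgeR adjusted p = 0.0480), with a sum of 1145 to 3665 CPM in exercise and 3302 to 4556 CPM in control. Neither call held without exercise replicate 17. All 4 tested Schwann cell markers lay below 0 with none past the threshold, and the sum over the 5 listed was 22.5 to 35.2 CPM in exercise and 39.8 to 93.5 CPM in control, without overlap. Monocyte-derived macrophage markers had 4 of 6 estimates below 0, with none past the threshold. They summed to 661 to 1269 CPM in exercise and 464 to 846 CPM in control. Astrocyte markers are given above with Dbi. Apart from that of the Schwann cells, these sums overlapped between exercise and control. The part of these cell types in the lower Acsl1, Acsl3 and Acsl6 and the higher Acsl5 of exercise at day 10 was not tested.

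The exercise difference itself differed most between the days for Acsl3. Its difference at day 10 minus that at day 5 was -0.72 ± 0.22 on the log2 scale (SE), followed by Acsl6 at -0.59 ± 0.26 and Dbi at -0.34 ± 0.18, while Acsl4 and Acbd5 were at -0.02 ± 0.17 and 0.02 ± 0.16. Acsl1, Acox3, Acsl5 and Acbd3 were at -0.28, -0.26, 0.24 and 0.14. Without exercise replicate 17 these values were -0.63 for Acsl3, -0.49 for Acsl6, -0.26 for Dbi, -0.14 for Acsl4 and -0.03 for Acbd5. In the same fit Acox3 was at -0.30, larger in size than Dbi, Acsl1 at -0.22, Acsl5 at 0.07 and Acbd3 at 0.07. These are descriptions, since they contain both exercise comparisons. Over the whole table, edgeR called none of the 15096 genes for this difference (0%); 1376 had an unadjusted p under 0.05, and DESeq2 called 18.

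The change of the lesion between the days was tested, since it was not the comparison the genes were proposed on, although it uses the same libraries. Control at day 5, where Acox3 was low, was part of the comparison in which Acox3 stood out and is the reference here. The call of Acox3 in control, and its place in the count below, therefore lean on values by which it was chosen. Dbi stood out at day 10, whose libraries are likewise used here. In exercising mice 0 of the 9 genes passed an adjusted p of 0.05 in edgeR's test, where 10.1% of all genes did; 1 of them, Acox3, had an unadjusted p under 0.05 (25.8% of all genes), and DESeq2 also called 0. In control mice 6 of the 9 passed, where 12.3% of all genes did. Acox3, Acsl1, Acsl3 and Acsl6 were higher at day 10 (4 of 9, beside 5.66% of all genes), and Acsl5 and Acbd3 were lower (2 of 9, beside 6.64%). Dbi, Acsl4 and Acbd5 did not pass. That a gene passed in control and not in exercise does not show that the groups differed: that difference is the one given above, for which edgeR called none of the 15096 genes, these 9 included.

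Acsl3 showed the largest change among the 9 in control. In exercise it had 49.8, 30.3, 34.7 and 39.2 CPM at day 10 in replicates 13, 17, 18 and 19, against 40.9, 37.0, 39.9 and 45.2 CPM at day 5 in replicates 1, 2, 7 and 12. In control it had 54.5, 61.5, 43.6 and 42.7 CPM at day 10 in replicates 2, 3, 4 and 5, against 32.0, 28.5, 37.7 and 31.8 CPM at day 5 in replicates 1, 2, 5 and 6. The days overlapped in exercise and did not in control, and 3 of 4 exercise libraries at day 5 lay above all control libraries at day 5. The log2 fold change, day 10 minus day 5, was -0.08 ± 0.15 in exercise (SE, edgeR adjusted p = 0.782) and 0.64 ± 0.15 in control (edgeR adjusted p = 0.0107).

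For Acox3 every exercise library at day 10, at 55.6 to 64.4 CPM, lay above every exercise library at day 5, at 49.3 to 54.8 CPM, with a log2 fold change of 0.23 ± 0.11 (edgeR adjusted p = 0.186). In control Acox3 rose by 0.49 ± 0.11 on the log2 scale (edgeR adjusted p = 0.00589), with the day 10 libraries, at 45.7 to 52.4 CPM, again all above the day 5 libraries, at 30.7 to 42.0 CPM. The log2 fold change of Acsl1 was 0.14 ± 0.10 in exercise (edgeR adjusted p = 0.425). In control Acsl1 rose by 0.42 ± 0.10 (edgeR adjusted p = 0.0124), with 102, 115, 107 and 98.6 CPM at day 10 against 85.5, 77.1, 70.0 and 83.2 CPM at day 5, without overlap. The calls of Acox3, Acsl1 and Acsl3 in control held when each of the 8 libraries was left out in turn, with edgeR adjusted p of at most 0.0449.

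In exercise Acsl6 averaged 80.1 ± 15.7 CPM at day 10 and 80.2 ± 15.4 CPM at day 5 (SD, n = 4). In control it had 114, 123, 77.3 and 121 CPM at day 10 in replicates 2, 3, 4 and 5, against 54.8, 72.1, 91.4 and 70.4 CPM at day 5 in replicates 1, 2, 5 and 6. Replicate 4 at day 10 lay within the day 5 range, and the log2 fold change was -0.0027 ± 0.18 in exercise (edgeR adjusted p = 0.995) and 0.59 ± 0.18 in control (edgeR adjusted p = 0.0406). Acsl5 fell in control, with 36.4, 34.7, 41.2 and 36.6 CPM at day 10 against 56.5, 54.6, 44.9 and 57.9 CPM at day 5, and the days did not overlap. Its log2 fold change was -0.28 ± 0.15 (edgeR adjusted p = 0.234) in exercise and -0.52 ± 0.15 (edgeR adjusted p = 0.0254) in control. Without exercise replicate 17, whose 68.8 CPM was the highest at day 10, Acsl5 passed in exercise too, at -0.45 (edgeR adjusted p = 0.0361). The log2 fold change of Acbd3 was -0.16 ± 0.10 in exercise (edgeR adjusted p = 0.328). In control Acbd3 fell by 0.30 on the log2 scale (SE 0.10, edgeR adjusted p = 0.0491), with 57.8 to 65.5 CPM at day 10 against 72.0 to 83.8 CPM at day 5.

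The control calls of Acsl5 and Acsl6 were each lost without control replicate 1, 2 or 6 at day 5 or without control replicate 2, 3 or 5 at day 10, with edgeR adjusted p up to 0.0720 for Acsl5 and 0.121 for Acsl6. The call of Acbd3 was lost in all 8 such fits, with edgeR adjusted p from 0.0554 to 0.139. All 3 genes kept their direction in these fits.

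Dbi itself had a log2 fold change of -0.02 ± 0.13 between the days in exercise (edgeR adjusted p = 0.955), with means of 57.8 ± 9.81 CPM at day 10 and 58.5 ± 4.63 CPM at day 5 (SD, n = 4). In control it was 0.33 ± 0.13 (edgeR adjusted p = 0.102), with 3 of 4 libraries at day 10 above all 4 at day 5. Acsl4 was at -0.08 ± 0.12 in exercise (edgeR adjusted p = 0.720) and -0.06 ± 0.12 in control (edgeR adjusted p = 0.792). Acbd5 was at 0.17 ± 0.11 in exercise (edgeR adjusted p = 0.364) and 0.15 ± 0.11 in control (edgeR adjusted p = 0.417). Without exercise replicate 17 the exercise values were 0.07 for Dbi, 0.0066 for Acsl3, 0.10 for Acsl6 and -0.20 for Acsl4, and 1 of the 9 genes, Acsl5, passed. In that fit Acox3 was at 0.18, Acsl1 at 0.20, Acbd3 at -0.23 and Acbd5 at 0.12. The median log2 fold change over the 9 genes was -0.02 in exercise and 0.33 in control, beside 0.01 over all genes in either. Libraries of the 2 days did not overlap for 1 of the 9 in exercise, where 14.1% of all genes did not, and for 5 of the 9 in control, where 20% did not.

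**Figure D3:**
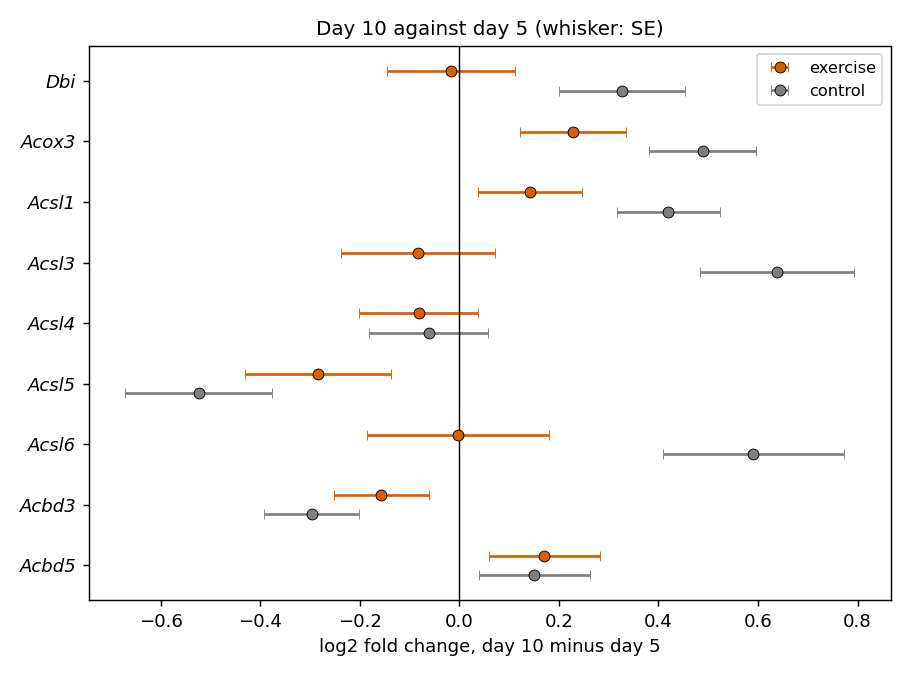
Log2 fold change, day 10 minus day 5, of the 9 genes in exercise (orange) and in control (grey), with SE as whiskers, from the fit over all 16 libraries. The exercise points lie between -0.28 and 0.23, while in control Acsl3 lies at 0.64 and Acsl5 at -0.52.

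Cell type markers changed over the same days, in which edgeR's test called 10.1% of all genes in exercise and 12.3% in control, in either direction. In exercise, 3 of 8 mature oligodendrocyte markers rose in edgeR's test, with a sum of 11656 to 26908 CPM at day 10 and 11612 to 16434 CPM at day 5. Without exercise replicate 17, 6 of the 8 rose in exercise. In control, 6 of 8 rose, and their sum was 23429 to 26309 CPM at day 10 and 10429.6 to 14325 CPM at day 5. Of 8 astrocyte markers 2 rose in exercise and 5 in control. Of 6 microglia markers 4 rose in exercise, where all 6 estimates lay above 0, and 3 rose in control, where 2 lay below 0. Their sum was 5948 to 12844 CPM at day 10 and 5781 to 7796 CPM at day 5 in exercise. In control the sum was lower at day 10, at 5498 to 7631 CPM, than at day 5, at 6995 to 9405 CPM, with overlap. Of 6 markers of monocyte-derived macrophages 3 fell in exercise, with a sum of 661 to 1269 CPM at day 10 and 874 to 1917 CPM at day 5, and 3 fell in control, with a sum of 464 to 846 CPM at day 10 and 924 to 2351 CPM at day 5. Without exercise replicate 17, 2 of these 6 fell in exercise. Of 8 neuron markers 3 fell in exercise and 2 in control, with sums of 125 to 520.1 CPM at day 10 and 466 to 885 CPM at day 5 in exercise, and of 162 to 414 CPM at day 10 and 333 to 484 CPM at day 5 in control. Of 8 endothelial markers 3 fell in exercise and 1 rose in control. Of 6 markers of fibroblasts and meninges 0 passed in exercise and 1 rose in control, where their sum was 3302 to 4556 CPM at day 10 and 512 to 2336 CPM at day 5. Of 3 tested neutrophil markers 1, Csf3r, rose on either side, while the other 2 had estimates below 0 in exercise and above 0 in control. The sum over the 5 listed was 178 to 194 CPM at day 10 and 73.6 to 90.1 CPM at day 5 in exercise. In control it was 127 to 191 CPM at day 10 and 61.5 to 97.5 CPM at day 5. Csf3r alone averaged 186 CPM of a mean sum of 187 CPM in exercise at day 10, and 161 of 164 CPM in control at day 10. The rise of the sum is therefore that of 1 gene and not of the neutrophil markers as a set. The part of these cell types in the changes of Acsl1, Acsl3, Acsl5, Acsl6, Acox3 and Acbd3 was not tested.

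Levels of different genes were compared per kilobase of exon (RPKM), with the exon length that the authors deposited, 1422 bases for Dbi and 11521 for Acox3. That length equals the union of annotated exons in GENCODE M21 for 6 of the 9 genes and is shorter than it for Acsl1 (9449 against 10483 bases), Acsl5 (3150 against 4864) and Acbd5 (4154 against 9775). Transcripts that use part of that length have a level that is too low on this scale. Dbi was highest in all 16 libraries, with a mean of 52.2 ± 14.1 RPKM (SD over the 16 libraries). Acsl4 followed at 20.6 ± 2.29 RPKM, Acbd5 at 19.5 ± 2.11 RPKM and Acsl5 at 16.4 ± 3.89 RPKM. Acbd3 at 10.5 ± 1.13, Acsl1 at 9.37 ± 1.38, Acsl3 at 9.31 ± 2.07 and Acsl6 at 8.60 ± 2.11 RPKM came next, and Acox3 was lowest in all 16 libraries at 4.26 ± 0.842 RPKM. Acsl4 exceeded Acbd5 in 10 of 16 libraries and Acbd3 exceeded Acsl1 in 10 of 16, so that these neighbours do not differ beyond their spread, and the same holds for Acsl1 and Acsl3, with Acsl1 above in 9 of 16. Acbd5 exceeded Acsl5, and Acsl3 exceeded Acsl6, in 12 of 16 libraries. With the M21 lengths, an alternative chosen after seeing the data, Acsl5 was at 10.6, Acsl1 at 8.45 and Acbd5 at 8.28 RPKM, so that Acbd5 moved to the eighth place, while Dbi, Acsl4 and Acox3 kept the first, the second and the last. Between libraries Dbi varied most of the 9, by a factor of 2.42 between its highest and lowest library, and Acbd5 least, by a factor of 1.39. Counts per library ran from 473 to 1362 for Dbi and from 292 to 717 for Acsl3, the gene with the fewest.

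Within the Acsl family, the summed level of the 5 genes was 67.8 ± 5.21 RPKM in exercise and 60.7 ± 1.16 in control at day 5, and 63.3 ± 4.81 in exercise and 65.3 ± 3.48 in control at day 10 (SD, n = 4). The exercise sum at day 10 was 61.7 ± 4.43 RPKM without exercise replicate 17 (n = 3). Acsl5 made up 29.7% ± 2.37 of the sum in exercise and 28.01% ± 3.32 in control at day 5, and 26.1% ± 4.12 in exercise and 18.2% ± 2.19 in control at day 10. Every control library at day 10 had a lower Acsl5 share than every library of the other 3 groups, whose lowest share was 23.2%. The exercise share at day 10 was 24.1% ± 1.20 without exercise replicate 17 (n = 3). With the M21 lengths the Acsl5 shares were 21.8% in exercise and 20.5% in control at day 5, and 18.9% in exercise and 12.8% in control at day 10, and control libraries at day 10, at most 14.98%, still lay below all others, at least 16.6%. Acsl3 and Acsl1 held 17.7% ± 2.26 and 17.1% ± 0.773 in control at day 10, and 12.3% ± 1.34 and 13.8% ± 1.26 in control at day 5. The mean share of Acsl4 ranged from 30.3% ± 1.48 in control at day 10 to 33.9% ± 2.63 in control at day 5.

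**Figure D4:**
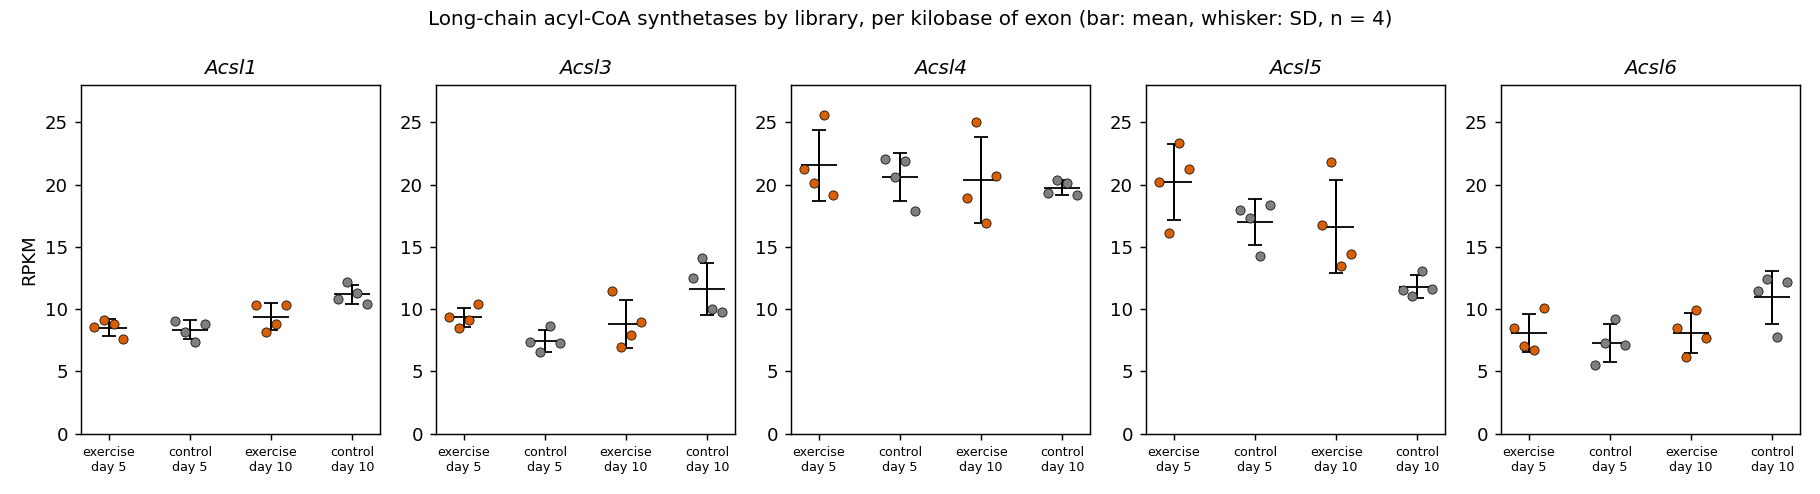
RPKM (deposited exon lengths) of the 5 Acsl genes in each library of exercise and control lesions at day 5 and day 10, on a shared axis, with the mean as a bar and the SD as whiskers (n = 4). In control at day 10 Acsl5 is at its lowest, 11.8 RPKM on average, and Acsl1, Acsl3 and Acsl6 are at their highest, between 10.95 and 11.6 RPKM.

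The genes whose pattern over the 16 libraries was most like that of Dbi were picked by the root mean square difference of log2 CPM, each gene centred on its own mean. They were Smarcd3 at 0.18, Ppdpf at 0.19, Map7d1 at 0.19, Lxn at 0.20 and Ckb at 0.20 log2 units, where Dbi itself had an SD of 0.38. Ckb, the brain creatine kinase, averaged 2401 ± 336 CPM in exercise and 3134 ± 606 CPM in control at day 5, and 2295 ± 485 CPM in exercise and 3324 ± 180 CPM in control at day 10 (SD, n = 4). None of the other 8 genes was close to Dbi on this measure: Acsl1 ranked 633 and Acsl6 ranked 774 of 15095 genes, and Acsl5 was the furthest at rank 11321.

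A wider set of 134 genes of acyl-CoA metabolism in 11 lists was examined beside the 9, and 119 of them were tested. The lists were chosen with earlier results of these data known, so the share of a list that passed is a description. Exercise against control called 0 of the 119 at day 5 and 0 at day 10 by edgeR, with 14 and 12 at an unadjusted p under 0.05 (10% and 12.8% of all genes), while DESeq2 called Agpat5 at day 5 and Slc27a3 at day 10. Between the days, 15 of the 119 passed in exercise, 5 higher and 10 lower (12.6%, beside 10.1% of all genes), and 19 passed in control, 10 higher and 9 lower (16%, beside 12.3%). Gabra2, a GABA-A receptor subunit, was at 54.8 ± 17.1 CPM in exercise and 32.4 ± 4.22 CPM in control at day 5 without overlap (edgeR adjusted p = 0.279). Neuron markers at day 5 summed to 466 to 885 CPM in exercise and 333 to 484 CPM in control. Their estimates lay above 0 for 6 of 8, with none past the threshold, and their part in the Gabra2 values was not tested. The acyltransferase gene Agpat5 was at a log2 fold change of -0.45 ± 0.11 at day 5 (edgeR adjusted p = 0.268). Cers2, the ceramide synthase of very long chain lipids, had a log2 fold change of -0.28 ± 0.10 at day 10 (edgeR adjusted p = 0.235).

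Among partners of the Dbi peptides and of Acbd3 and Acbd5, Tspo, the mitochondrial endozepine receptor, fell in control to 47.0 ± 4.44 CPM at day 10, against 86.6 ± 27.4 CPM at day 5 (log2 fold change -0.88 ± 0.21, edgeR adjusted p = 0.0115). Gabrb1, a GABA-A receptor subunit, rose in control by 0.79 ± 0.25 (edgeR adjusted p = 0.0434). Of the 10 tested receptor and partner genes of the Dbi peptides 0 passed in exercise (beside 10.1% of all genes) and these 2 passed in control (20%, beside 12.3%). Of the 4 partners of Acbd3 and Acbd5 none passed in any comparison. Golgb1, a Golgi protein that binds Acbd3, was nearest between the days in control, with 15.8 ± 2.41 CPM at day 10 and 11.4 ± 1.75 CPM at day 5 (log2 fold change 0.47 ± 0.15, edgeR adjusted p = 0.0539, and from 0.0233 to 0.141 with 1 library left out). It was at 16.9 ± 1.02 CPM in exercise and 11.4 ± 1.75 CPM in control at day 5 without overlap (log2 fold change 0.56 ± 0.15, edgeR adjusted p = 0.277). Of the 3 tested relatives with an acyl-CoA binding domain, Eci2, a peroxisomal and mitochondrial isomerase, fell in exercise between the days by 0.48 on the log2 scale (SE 0.13, edgeR adjusted p = 0.0243). It was the only 1 of the 3 that passed in exercise (33.3%, beside 10.1% of all genes), and 0 passed in control (beside 12.3%).

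Of 5 tested fatty acid binding genes 4 fell between the days in exercise (Cd36, Fabp4, Fabp5 and Fabp7) and 3 in control (Cd36, Fabp4 and Fabp5). These are 80% and 60% of the list, beside 10.1% and 12.3% of all genes called in either direction. Cd36, a fatty acid and lipid scavenger receptor, had 47.6 ± 25.9 CPM at day 10 and 345 ± 130 CPM at day 5 in exercise, and 59.6 ± 10.7 CPM at day 10 and 338 ± 83.9 CPM at day 5 in control. Its log2 fold change was -2.86 ± 0.37 in exercise (edgeR adjusted p = 0.000321) and -2.50 ± 0.36 in control (edgeR adjusted p = 0.00046). Fabp4 and Fabp5, cytosolic carriers known from macrophages and fat, fell in both as well, Fabp5 by 1.19 in exercise and by 0.79 in control on the log2 scale. Of 6 markers of monocyte-derived macrophages 3 also fell in exercise over these days (2 without exercise replicate 17). In control 3 fell, and 2 of the 6 estimates lay above 0. The part of these cells in the values of Cd36, Fabp4, Fabp5 and Tspo was not tested.

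Of 21 tested mitochondrial oxidation genes 3 fell in exercise (14.3%, beside 10.1% of all genes called in either direction) and 2 in control (9.52%, beside 12.3%). Cpt1a, the gate of fatty acid entry into mitochondria, fell by 0.56 on the log2 scale in exercise (SE 0.11, edgeR adjusted p = 0.00482) and by 0.43 in control (SE 0.11, edgeR adjusted p = 0.0201), and the carrier Slc25a20 fell in both. Acadl fell in exercise by 0.73 (SE 0.13, edgeR adjusted p = 0.00151). In control 10 of the 21 estimates lay above 0. Among 16 tested peroxisomal genes, Acaa1a, a thiolase, rose in both. Of that list 6.25% passed in exercise and 12.5% in control, beside 10.1% and 12.3% of all genes.

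Of 18 tested genes that place acyl groups on glycerolipids and sterols, 3 rose in exercise (16.7%, beside 10.1% of all genes called in either direction). In control 5 rose and 1 fell (33.3%, beside 12.3%). The lysophospholipid acyltransferase Lpcat2 had 141 ± 12.4 CPM at day 10 and 62.7 ± 15.2 CPM at day 5 in exercise, and 108 ± 12.2 CPM at day 10 and 68.2 ± 12.2 CPM at day 5 in control, with edgeR adjusted p of 0.000243 and 0.00955. Lpcat1 and Dgat2 also rose in both, Gpam and Agpat4 rose in control, and Soat1, which makes cholesterol esters, fell in control by 0.63 on the log2 scale (SE 0.16, edgeR adjusted p = 0.015). Among 16 elongase and ceramide synthase genes, Elovl6 rose in control by 0.89 ± 0.21 (edgeR adjusted p = 0.00899), and Hsd17b12 fell in both. Of that list 6.25% passed in exercise and 12.5% in control, beside 10.1% and 12.3% of all genes. Of 11 tested genes of other synthetases and fatty acid transport proteins, Acsf2 rose in control and Slc27a3 in exercise (9.09% on either side). Of 10 tested thioesterases, Acot4 fell in control and Acot1 in exercise (10% on either side). Of 5 fatty acid nuclear receptor genes 0 passed on either side. Of all genes 10.1% passed in exercise and 12.3% in control. Slc27a3 was low, at 2.89 ± 3.11 CPM at day 10 and 0.482 ± 0.204 CPM at day 5 in exercise, with overlap. Acot4 was low too, at 0.366 ± 0.201 CPM at day 10 and 1.51 ± 0.339 CPM at day 5 in control. Of the genes named here, 8 of 15 calls in exercise (Acot1, Acadl, Cpt1a, Lpcat2, Lpcat1, Fabp5, Cd36 and Fabp4) and 10 calls in control (Tspo, Slc25a20, Dgat2, Lpcat2, Lpcat1, Elovl6, Hsd17b12, Cd36, Fabp5 and Fabp4) held in all 8 fits that left out 1 library. The other 7 in exercise (Eci2, Slc27a3, Acaa1a, Slc25a20, Dgat2, Hsd17b12 and Fabp7) were each lost in 3 to 7 of these fits, and the others named in control (Gabrb1, Acsf2, Acot4, Acaa1a, Cpt1a, Gpam and Soat1) in 1 to 7, with the same direction throughout and edgeR adjusted p up to 0.155 in exercise and 0.109 in control. The call of Agpat4 was not followed in those fits.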

How the data were processed

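RNA sequencing of 16 microdissected lesions was analysed. Per the labels' protocols, RNA was amplified (REPLI-g), poly(A)-selected and sequenced as strand-specific single reads. Per the submitters' processing notes, the tools were FastQC 0.11.4, TopHat2 2.0.10, Bowtie 1.1.2, featureCounts 1.5.0-p1 and DESeq2 1.12.4, on GRCm38. The deposited table holds raw read counts per Ensembl gene and exon length. The authors' deposited comparison tables hold log2 fold changes with p-values; the day 10 table lists 7 libraries, without exercise replicate 17. Only their log2 fold changes of Dbi are quoted.

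Counts were tested with edgeR 4.0.16 (R 4.3.3): genes kept by filterByExpr (minimum count 10 and total 15), TMM scaling, 1 mean per group over all 16 libraries (12 residual degrees of freedom), robust quasi-likelihood, Benjamini-Hochberg adjustment over 15096 genes, threshold 0.05. SE is the log2 fold change divided by the root of F. The fit was tested on simulated data. Alternatives were DESeq2 1.42.0, RLE scaling, no filter, only the 8 libraries compared, each library left out, a replicate block and, added after seeing the data, M21 exon lengths. The labels do not say that libraries come from separate animals, so p-values measure the spread between libraries. The prior count of log2 CPM was 2.

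The members and gene lists were chosen with earlier results of these data known. Named genes are all 9 members; from each list and comparison, called genes, up to 4 per direction by smallest p, else the 1 with the smallest p; and the 5 genes most like Dbi. Agpat4 lies outside that rule, and 1 gene within it is not reported here. Symbols came from GENCODE release M21 annotation, for 45143 of 46078 gene IDs. Acsl3 shares 244 of its exon bases with Utp14b on the same strand. Of the 75-base words in the transcripts of the 9 genes, up to 8.77% (Acsl1) also occur in another gene's transcripts, and none for Dbi; how shared reads were counted is not given in the sources used here.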

Additional observations from a re-analysis of the deposited data

Results flagged for a closer look

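In 36 sets of 4 libraries (9 genes in 4 groups), 1 library lay far from the other 3 in 2 sets by Dixon's test at the 95% level, and chance gives about 1 in 20. Dbi had 65.4 CPM in exercise replicate 2 at day 5, beside 55.5 to 56.9 CPM in the other 3, and it remained below the lowest control library of that day, 68.7 CPM. Acbd5 had 88.7 CPM in exercise replicate 1 at day 5, beside 72.0 to 73.8 CPM in the other 3.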

How the results depend on the processing

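Of 450 values of the 9 genes under alternatives, 426 kept their direction. Dbi, exercise against control, ran from -0.52 to -0.37 at day 5 and from -0.91 to -0.71 at day 10 over the fits that left out 1 library. The 24 that turned were of estimates near 0: 9 for exercise against control at day 5 (Acbd3, Acbd5, Acsl1 and Acsl4, with values from -0.06 to 0.03), 4 at day 10 (Acbd5 and Acsl4, from -0.07 to -0.0024), 11 between the days in exercise and 0 in control. In exercise, Acsl6 was at 0.0037 with RLE scaling, 0.0039 with DESeq2 and 0.0012 with only the 8 libraries compared, and leaving out 1 library gave -0.12 to 0.12 for Acsl6, -0.13 to 0.068 for Dbi, -0.20 to 0.0081 for Acsl4 and -0.24 to 0.0066 for Acsl3. The cause was not tested.

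DESeq2 called 80 genes at day 5 and 227 at day 10 for exercise against control, and 18 for the difference between the days. With only the 8 libraries compared, 0 genes were called for exercise against control at day 10, and 863 genes and 9 listed genes for the days in exercise. Leaving out 1 library gave 0 to 1 genes for exercise against control at day 5 and 0 to 136 at day 10 (136 without exercise replicate 18; 0 without exercise replicate 17 or 19 or control replicate 2 or 3), 0 to 2 for the difference between the days, 992 to 1843 genes, 0 to 1 members and 9 to 19 listed genes for the days in exercise, and 3 to 5 members for the days in control. Without the filter, Acbd3 (edgeR adjusted p = 0.138) and Acsl6 (0.0505) lost their control calls, and Acbd3 also with RLE scaling (0.0514) and with only the 8 libraries compared (0.0588).

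Samples of the 2 groups share 2 replicate numbers at day 5 and 2 in control, with correlations of deviations of 0.069, -0.029, 0.056 and 0.017, and the labels do not tie the numbers to a shared source. With the replicate block, 332 genes, 0 members and 3 listed genes were called for the days in control. Dbi, exercise against control at day 5, was at -0.22 in that fit. A replicate number without a partner in the other group adds nothing to a blocked group difference. These values therefore rest on the 2 shared numbers of each comparison, and the other libraries drop out. With so few libraries, the blocked fit cannot decide whether the replicate numbers account for the calls or for the Dbi difference.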
